A study of Mus musculus with 8 samples.

Results

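The genes described here encode the cell-surface and secreted cues that steer cells and axons: the Eph receptors and their ephrin ligands, the Slits and Robos, netrins with their receptors, and the class 3 semaphorins with neuropilins and plexins. They were taken by name, as a list of 42 symbols. The rule for the list used no measured value, but the list was chosen with earlier results of these data known. All 42 had at least 1 probe among the 27828 gene names on the array. Of the 42, 38 had a probe well above background on at least 4 of 8 arrays and were tested.

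RNA was measured on single-colour Agilent arrays from mouse dorsal pancreatic epithelia, dissected by hand at e12.5. The 4 mutant samples were Sox9fl/fl; Pdx1-Cre, in which Cre recombinase, driven by the Pdx1 promoter, recombines the floxed Sox9 gene in pancreatic cells. The 4 wild-type samples were Sox9fl/fl without Cre. All carried the floxed alleles, from a Sox9-flox line on a mixed FVB/N x C57Bl/6J background crossed with Pdx1-Cre on C57Bl/6J. Each sample was RNA pooled from 3 embryos. Presence of Cre and genotype are the same split and cannot be told apart. The series' design text speaks of 3 biological replicates, whereas 4 arrays per genotype were used here as labelled, so p-values measure the spread between these pools. The comparison addresses which genes differ when Sox9, a transcription factor of pancreatic progenitors, is removed.

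Eph receptors are receptor tyrosine kinases that bind membrane-anchored ephrins on neighbouring cells, so that signals can pass into both cells and often drive repulsion or boundary formation. Slits are secreted and act through Robo receptors, netrins act through Dcc and Unc5 receptors, and class 3 semaphorins bind neuropilins that signal with plexins. In the embryonic pancreas such cues are known from blood vessels, nerves, mesenchyme and the branching epithelium, and EphB signalling is known to shape epithelial branching.

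Values below are log2 signals relative to the 75th percentile of the same array, so that 0 marks that percentile. A difference is the mutant mean minus the wild-type mean. It was tested with limma and Benjamini-Hochberg adjustment over all 18506 genes with a probe above background, at a threshold of 0.05. The values of different probes are not comparable as levels, because probes differ in how well they hybridise.

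The arrays lay on 3 slides, with wild-type replicate 2 and mutant replicate 3 on slide 1, wild-type replicate 3 and mutant replicates 1 and 4 on slide 2, and the others on slide 3. The 75th percentile of the signal ran from 372 to 640 and the share of spots well above background from 59.4% to 77.7%. Sox9 itself fell by 2.70 (SE 0.52, adjusted p = 0.0252), from 2.29 ± 0.51 (SD, n = 4) to -0.41 ± 1.08. That call was lost without wild-type replicate 1, 2 or 4 or mutant replicate 1, with adjusted p up to 0.0731. All 24 epithelial markers passed the filter, but so did 22 of 23 mesenchymal, 18 of 18 endothelial and 14 of 15 macrophage and leukocyte markers, so the dissected epithelia also held RNA of those cell types. In such bulk RNA, fewer cells of a type and less RNA per cell cannot be told apart. Summed epithelial marker signal, in units of the 75th percentile, was 109 to 153 in wild-type and 39.3 to 62.1 in mutant arrays, whereas the mesenchymal sum was 283 to 366 against 424 to 566. These sums and those below mostly reflect a few bright probes. Wild-type log2 means were 6.33 for Col1a1, 6.69 for Col1a2 and 5.24 for Krt8. Y-linked genes summed to 1.67 in wild-type replicate 3, 0.12 or less in the other wild-type pools and 1.04 to 3.27 in the mutant pools. Y-linked signal, a mark of male embryos, thus largely went with genotype, and their effects cannot be fully told apart.

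Of the guidance genes tested, 3 passed the threshold and most lay slightly above 0. In all, 994 of 18506 genes (5.37%) passed, 287 higher in the mutant (1.55%) and 707 lower (3.82%). The 3 guidance genes are 7.89% of the 38: the ephrin genes Efna3 and Efna5 rose (5.26%) and the plexin gene Plxnb1 fell (2.63%). The median difference of the 38 was 0.29, beside 0.02 over all genes, and 32 of 38 (84.2%) were above 0, beside 52.9% of all genes. Of the 38, none differed by 2-fold or more, beside 880 of the 18506 genes, and 14 had an unadjusted p under 0.05, beside 3482 of the 18506. For 24 of the 38 (63.2%) the 95% interval of the difference lay within 2-fold in either direction, beside 73.7% of all genes.

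The count of calls moved when 1 array was left out. Without wild-type replicate 1 or 3, or mutant replicate 1 or 2, no guidance gene passed, while 506, 495, 412 and 449 genes passed in all. Without wild-type replicate 2 or 4 or mutant replicate 3, 1 of 38 passed (2.63%), beside 3.56%, 2.13% and 3.83% of all genes in either direction. Without mutant replicate 4, 3 passed (7.89%), beside 5.25%. Each of these guidance genes was higher in the mutant. Of the 38, those above 0 numbered 29 to 33 in these 8 fits. With the mean log2 signal of 4 Y-linked genes as a covariate, no guidance gene and 29 genes in all passed, and 29 of 38 were above 0.

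**Figure D1:**
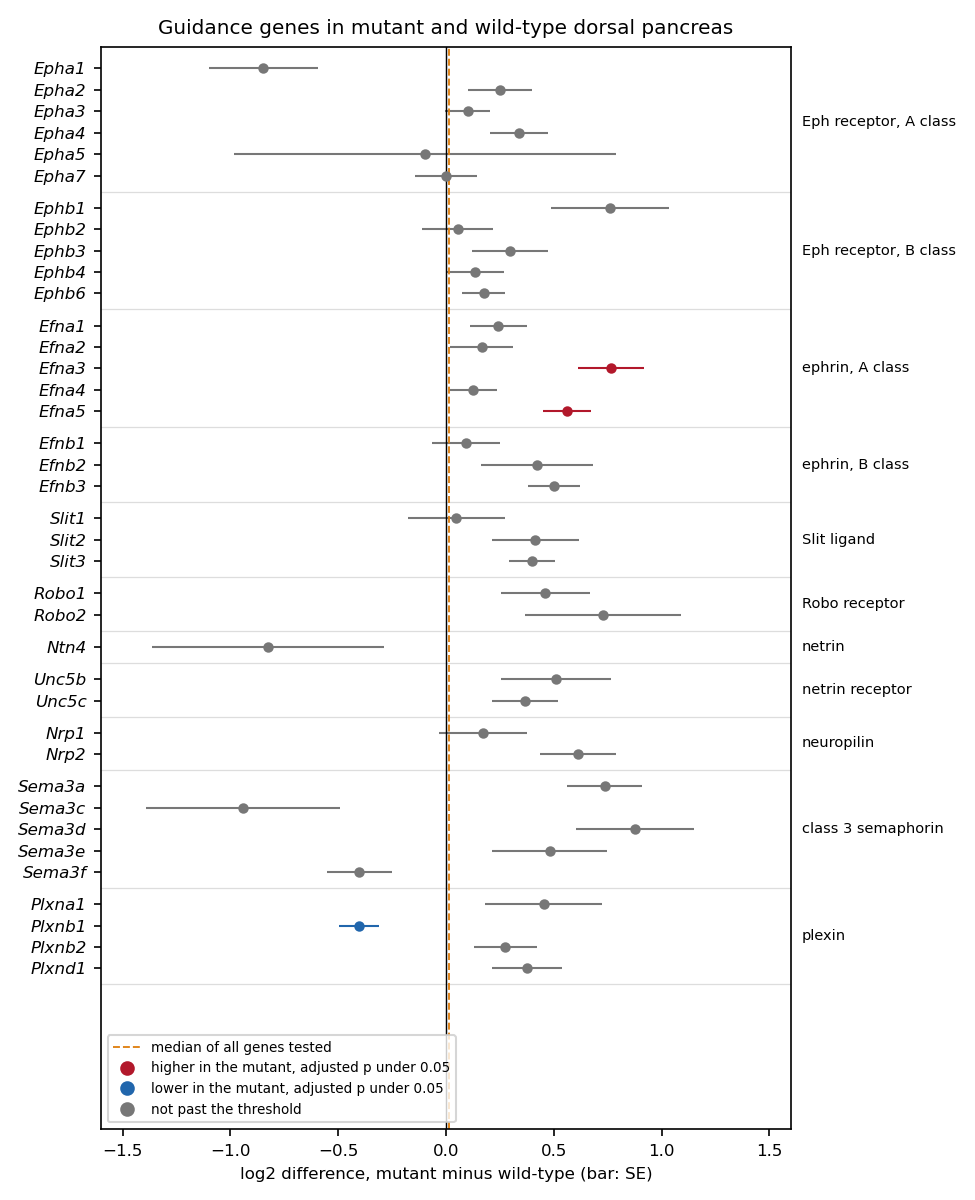
Log2 difference, mutant minus wild-type, of the 38 guidance genes tested, grouped by role, with bars showing the standard error (4 arrays per genotype). Efna3 and Efna5 (red) lie to the right of 0 and Plxnb1 (blue) to the left, and 32 of the 38 points lie to the right of 0.

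The sequences that measured the 3 genes past the threshold, and Slit3, whose probes had opposite signs, are shown as the first 30 bases of each probe of 60 bases, 5′ to 3′, from the deposited files, with positions on mouse assembly mm8. The files do not say in which exon a probe lies, and no annotation of that build was used here.
Efna3 probe, chr3:89400573-89400632, minus strand: tcttttgtcttctgtgaagacaggacctat
Efna5 probe of the higher signal, chr17:62290290-62290349, minus strand: tgtgattctagcatttgtctctaaccaatg
Efna5 second probe, chr17:62336320-62336379, minus strand: tcggaaaaattccagctcttcactcccttt
Plxnb1 probe of the higher signal, chr9:108976313-108976372, plus strand: ttgccattcatgttccatgaatttttaaaa
Plxnb1 second probe, chr9:108976748-108976807, plus strand: tcttcaagatcgcaggagccattttggttt
Slit3 probe of the higher signal, chr11:35555291-35555350, plus strand: gttctataaaagagagtaacagtgttacaa
Slit3 second probe, chr11:35551480-35551539, plus strand: aatatgtcttccagtgcacggacggctcct

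Among the A-class ephrins, which are tethered to the membrane by a lipid anchor and bind mainly EphA receptors, 2 of 5 rose and none fell. Efna5, known for repulsion of axons and for boundaries between tissues, read 2.87, 3.11, 2.96 and 2.97 on the wild-type arrays, in the order of replicates 1 to 4, against 3.51, 3.47, 3.73 and 3.45 on the mutant arrays. The same order is kept for other genes below. The lowest mutant array lay above the highest wild-type array. Efna5 rose by 0.56 (SE 0.11, 1.48-fold, adjusted p = 0.0269; two-sided exact permutation p = 0.0286, the smallest that 4 against 4 arrays can give). Its second probe, at -2.93 in the wild-type mean, differed by 0.37 (SE 0.25), which did not pass in a fit of all probes (adjusted p = 0.561). The first probe passed in that fit (adjusted p = 0.0363), but the Efna5 call was lost with the mean of the probes. Within slides 1, 2 and 3, on which arrays of both genotypes lay, the difference of the first probe was 0.63, 0.52 and 0.55. The Efna5 call was lost without wild-type replicate 1, 3 or 4 (adjusted p = 0.0636, 0.0709 and 0.0832) and without mutant replicate 1 or 2 (0.0805 and 0.0651), while the difference stayed between 0.50 and 0.61 over all 8 omissions.

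Efna3, another A-class ephrin, read -2.22, -1.88, -2.03 and -1.62 in wild-type against -1.21, -0.94, -1.24 and -1.31 in mutant arrays. Every mutant array was above every wild-type array, and wild-type replicate 4 was the closest. The gene rose by 0.76 (SE 0.15, 1.70-fold, adjusted p = 0.0295; exact permutation p = 0.0286), and by 0.65, 0.77 and 0.98 within slides 1, 2 and 3. Efna3 has 1 probe on the array. Its call was kept without wild-type replicate 4 or mutant replicate 4. Without wild-type replicate 1, 2 or 3 the adjusted p was 0.0631, 0.0649 and 0.0766, and without mutant replicate 1, 2 or 3 it was 0.0815, 0.0834 and 0.0555, with differences of 0.67 to 0.87 over the 8 omissions.

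The remaining A-class ephrins did not pass. Efna1 differed by 0.24 (95% interval -0.06 to 0.55), Efna2 by 0.17 (-0.17 to 0.50) and Efna4 by 0.13 (-0.13 to 0.38). The probes of Efna1, Efna3 and Efna4 lie within 62.1 kb of chromosome 3 in mm8, so the Efna3 rise stood between neighbours whose intervals included 0. Whether the 3 genes' differences were unequal was not tested.

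The EphA receptors, the binding partners of these ephrins, had none past the threshold among 6 tested, and their median difference was 0.05. Of the 6, 4 were above 0, a count in which Epha5 and Epha7 turned sign under quantile normalization, normexp and the authors' value table. Epha1, known for expression in epithelia, read 1.82, 1.17, 0.68 and 1.49 in wild-type and 0.54, 0.61, 0.03 and 0.58 in mutant arrays. The groups did not overlap, with wild-type replicate 3 close to the mutant arrays. Its difference of -0.85 (SE 0.25, exact permutation p = 0.0286) did not pass after adjustment (adjusted p = 0.101), and within slides it was -1.14, -0.11 and -1.04. It passed in the authors' value table (adjusted p = 0.0420) and with array weights (0.0363), and with the Y-linked level as a covariate it was -0.37.

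Epha4, the receptor with the broadest ligand range of the family, read 3.18, 2.79, 2.94 and 2.71 in wild-type and 3.21, 3.42, 3.20 and 3.13 in mutant arrays, with wild-type replicate 1 inside the mutant range. The difference was 0.34 (SE 0.13, adjusted p = 0.213). Epha2, an epithelial and vascular receptor, read 0.86, 0.70, 0.66 and 0.54 against 0.70, 0.88, 1.30 and 0.89, and the groups overlapped. Its difference was 0.25 (SE 0.15, adjusted p = 0.445).

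Epha3, a receptor of mesenchyme and motor axons, read -0.77, -0.88, -0.57 and -0.80 against -0.64, -0.64, -0.60 and -0.74, a difference of 0.10 (SE 0.11, adjusted p = 0.742). Its 3 probes did not go one way: a second differed by 0.42 and the third by -0.75 (adjusted p = 0.0373 in the fit of all probes). Epha7, a receptor of neural tissue, read 0.32, 0.22, 0.37 and 0.77 against 0.41, 0.45, 0.27 and 0.56, with overlapping groups. The difference was 0.00 (95% interval -0.33 to 0.33, adjusted p = 0.998). Epha5 was well above background on 2 wild-type and 2 mutant arrays, where all 8 values ran from -6.97 to -3.22, and its difference of -0.10 (95% interval -2.13 to 1.94, adjusted p = 0.978) bounds little.

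The B-class pairs had no gene past the threshold, and all 8 tested were above 0, though Ephb2 and Efnb1 turned below 0 without mutant replicate 2 and Ephb2 also without wild-type replicate 1 and with array weights. B-class ephrins cross the membrane and can signal into the cell that carries them. Efnb3 read 1.36, 1.40, 1.15 and 1.57 in wild-type and 1.96, 1.83, 1.96 and 1.74 in mutant arrays, with no overlap. Its difference was 0.50 (SE 0.12, adjusted p = 0.0549), and 0.56, 0.70 and 0.36 within slides 1, 2 and 3. The exact permutation p of 0.0286 follows from the lack of overlap, for which Efnb3 was picked, and adds nothing to it. The adjusted p fell under the threshold in 5 of 21 other settings, among them the authors' value table (adjusted p = 0.0371). Efnb2, a marker of arterial vessels, differed by 0.42 (SE 0.26), and its receptor Ephb4, a marker of venous vessels, by 0.13 (95% interval -0.18 to 0.45). Efnb1 differed by 0.09 (-0.27 to 0.46).

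Of the B-class receptors, Ephb1 had the largest difference. It read -2.91, -1.62, -1.71 and -2.01 in wild-type and -1.30, -1.25, -1.17 and -1.48 in mutant arrays. The groups did not overlap, but wild-type replicate 1 stood well below the rest. The difference was 0.76 (SE 0.27, adjusted p = 0.164; exact permutation p = 0.0286), and 0.48 without that array. Ephb2 and Ephb3, receptors known from branching of the pancreatic epithelium, differed by 0.05 (95% interval -0.32 to 0.43) and 0.30 (-0.11 to 0.71). Ephb6, which lacks kinase activity, differed by 0.17 (-0.06 to 0.40).

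Among Slits and Robos none of 5 passed and all 5 were above 0, though Slit1 turned below 0 without wild-type replicate 2 or mutant replicate 1 or 2 and with the Y-linked covariate. Slit3, a secreted ligand also known from blood vessels and diaphragm, read 2.63, 2.41, 2.40 and 2.42 in wild-type and 2.88, 2.78, 3.02 and 2.77 in mutant arrays, with no overlap. Its difference was 0.40 (SE 0.11, adjusted p = 0.0771), and 0.60, 0.43 and 0.26 within slides. The second Slit3 probe, whose sequence is given above, differed by -0.24 (SE 0.17, adjusted p = 0.613), and the mean of both probes by 0.08. The p of the first fell under the threshold in 3 of 21 other settings. Slit2 differed by 0.41 (SE 0.20). Of its 4 probes above background 3 were above 0, and the other, well above background on 3 wild-type and 2 mutant arrays, differed by -0.91. Slit1 differed by 0.05 (95% interval -0.47 to 0.56).

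The receptors Robo1 and Robo2, which neighbour each other on chromosome 16, differed by 0.46 (SE 0.21, adjusted p = 0.280) and 0.73 (SE 0.36, adjusted p = 0.338). All 4 Robo2 probes above background differed upward, by 0.73 to 1.25, and none passed. With the Y-linked level as a covariate the Robo2 difference was -0.13.

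**Figure D2:**
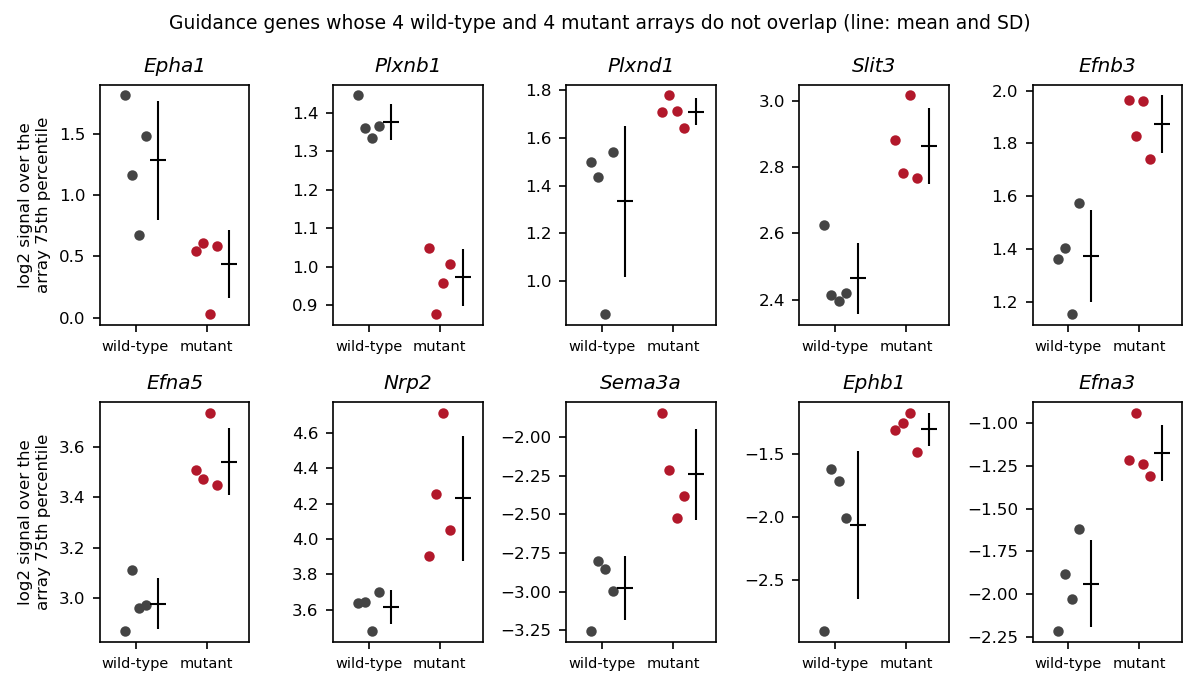
Log2 signal over the array's 75th percentile in each wild-type (grey) and mutant (red) array for the 10 guidance genes whose groups do not overlap, with mean and SD beside the points (n = 4 each) and an axis range of its own in each panel. Epha1 and Plxnb1 are lower in every mutant array, and the other 8 are higher.

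The netrin system was thinly detected. Ntn1, the best-known netrin, was well above background on 2 wild-type and no mutant arrays with 1 probe and on 1 wild-type and no mutant arrays with the other, so it was not tested. Its receptor Dcc was above background on 2 wild-type arrays and 1 mutant array. Ntn4, a netrin of basement membranes, read -4.83, -5.21, -2.92 and -4.86 in wild-type and -4.45, -6.09, -5.43 and -5.14 in mutant arrays. Wild-type replicate 3 stood apart and the other arrays overlapped, and the difference of -0.82 (SE 0.54, adjusted p = 0.506) was -0.31 without that array. The repulsive receptors Unc5b, known from vessels, and Unc5c differed by 0.51 (SE 0.25, adjusted p = 0.342) and 0.37 (SE 0.15, adjusted p = 0.236).

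Class 3 semaphorins, secreted ligands of neuropilins, went both ways and none of 5 passed. Sema3a, a repellent of axons and vessels, read -3.26, -2.80, -2.85 and -3.00 in wild-type and -1.84, -2.21, -2.52 and -2.38 in mutant arrays. Every mutant array was above every wild-type array. Its difference was 0.74 (SE 0.18, 1.67-fold, adjusted p = 0.0510; exact permutation p = 0.0286), its second probe differed by 0.58, and the p fell under the threshold in 5 of 21 other settings.

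Sema3d, known for guiding neural and endothelial cells, read -4.86, -4.54, -4.83 and -4.60 in wild-type and -3.60, -3.47, -3.54 and -4.70 in mutant arrays. Mutant replicate 4 lay within the wild-type range and the other mutant arrays above it. The difference was 0.88 (SE 0.27, adjusted p = 0.112). It passed by limma in 1 of 20 other settings, the fit without mutant replicate 4 (1.17, adjusted p = 0.00411). Leaving out the lowest mutant array makes a rise larger, so that p is no added support. The gene was well above background on 2 wild-type and 4 mutant arrays, so it met the filter only through the mutant arrays, where it was higher. Sema3e, the ligand of Plxnd1, had a like pattern, with -5.20 in mutant replicate 4 and -4.43 to -4.33 in the other mutant arrays. Sema3e differed by 0.48 (SE 0.26) and was likewise well above background on 2 wild-type and 4 mutant arrays.

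Sema3c, a cue known from the outflow tract of the heart, read -4.21, -3.58, -2.93 and -3.01 in wild-type and -3.73, -3.93, -5.61 and -4.23 in mutant arrays. The groups overlapped, and mutant replicate 3 was the lowest. Its difference of -0.94 (SE 0.45, adjusted p = 0.317) was the largest in size of the 38, and its second probe differed by -0.16. Sema3f, a ligand of Nrp2, differed by -0.40 (SE 0.15, adjusted p = 0.182) with a second probe at -0.37. The 4 genes Sema3a, Sema3c, Sema3d and Sema3e lie within 4497 kb of chromosome 5 in mm8, with differences from -0.94 to 0.88.

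The neuropilins are co-receptors of class 3 semaphorins and of VEGF. Nrp2, known from lymphatic and venous vessels and from neurons, read 3.64, 3.64, 3.48 and 3.70 in wild-type and 3.90, 4.25, 4.71 and 4.05 in mutant arrays. The groups did not overlap, and the mutant arrays were more spread. The difference was 0.61 (SE 0.18, 1.53-fold, adjusted p = 0.0925), with 1.07, 0.50 and 0.58 within slides, and it passed with slide as a fixed block (0.68, adjusted p = 0.0371). Nrp1 differed by 0.17 (95% interval -0.30 to 0.64), with probes of either sign.

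Plexins are the signalling receptors for semaphorins. Plxnb1, a receptor for Sema4d, read 1.45, 1.36, 1.34 and 1.36 in wild-type and 1.05, 0.88, 0.96 and 1.01 in mutant arrays. Each group spanned less than the gap between them. Plxnb1 fell by 0.40 (SE 0.09, 1.32-fold, adjusted p = 0.0462; exact permutation p = 0.0286). Within slides 1, 2 and 3 the difference was -0.40, -0.31 and -0.53. A second probe differed by -0.34 (SE 0.21, adjusted p = 0.521 in the fit of all probes). In that fit the first probe did not pass either (adjusted p = 0.0634). The call was lost whichever single array was left out (adjusted p = 0.0690 to 0.126), with differences of -0.43 to -0.37. It was also lost with slide as a fixed block (adjusted p = 0.0633) and with the mean of the probes. Sema4d, its ligand, differed by -0.14 (SE 0.36, adjusted p = 0.920), from -0.54 ± 0.58 to -0.68 ± 0.59 (SD, n = 4).

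The other plexins were above 0 and did not pass. Plxnd1, a receptor of endothelial cells, read 1.50, 1.43, 0.86 and 1.54 in wild-type and 1.71, 1.78, 1.71 and 1.64 in mutant arrays, with no overlap and with wild-type replicate 3 well below the rest. Its difference was 0.38 (SE 0.16, adjusted p = 0.259). Plxna1, which pairs with neuropilins, differed by 0.45 (SE 0.27), and Plxnb2, a receptor for class 4 semaphorins, by 0.27 (95% interval -0.06 to 0.61).

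Groups that did not overlap are a count of their own. For any such gene the exact permutation p is 0.0286, so that p adds nothing to the lack of overlap. Among the 38, 8 were higher in every mutant array (21.1%, beside 7.24% of all genes): Efna3, Efna5, Efnb3, Ephb1, Nrp2, Plxnd1, Sema3a and Slit3. Epha1 and Plxnb1 were lower in every mutant array (5.26%, beside 7.99%). Whether the share differs from that of all genes was not tested.

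The remaining members were Epha6 and Epha8, receptors of neural tissue. Epha6 was above background on 1 wild-type array with 1 probe and on none with the other, and Epha8 on none. They were not detectable at this signal, which does not show that they are absent.

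**Figure D3:**
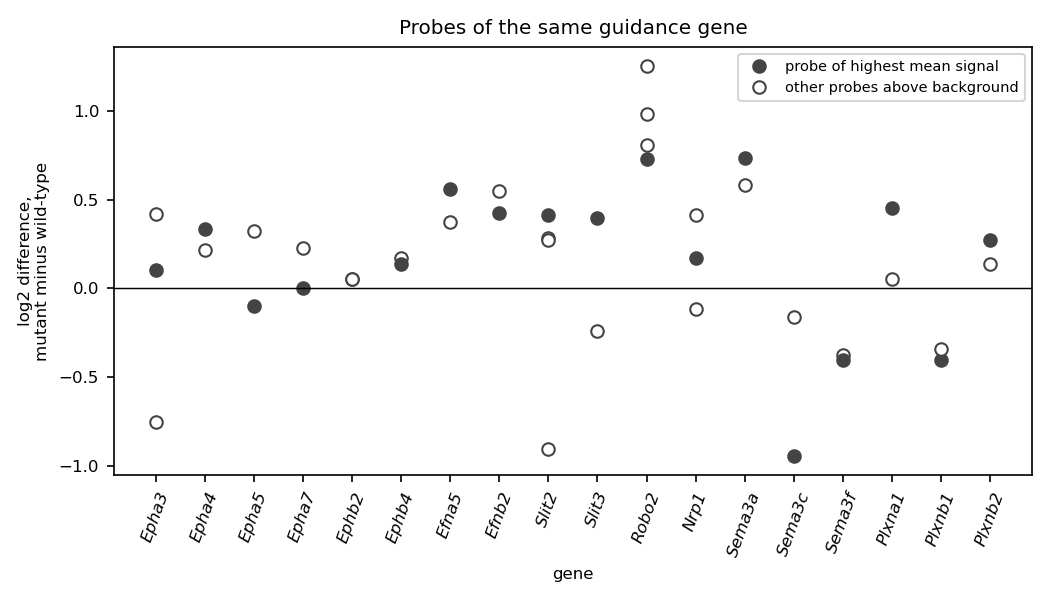
Log2 difference, mutant minus wild-type, of every probe above background for the 18 guidance genes with several, with the probe of highest mean signal filled and the others open. In 13 of the 18 all probes have one sign, and Epha3, Epha5, Nrp1, Slit2 and Slit3 have probes on both sides of 0.

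Promoter sequence is shown for the genes past the threshold, to compare their base composition and motif letters with those of other genes. Windows of 250 bases before the annotated start were read from RefSeq on GRCm38.p6 for 36 of the 42 genes, in 42 windows. For the 3 genes past the threshold the window is printed in the direction of transcription with each CG dinucleotide in capitals. Efna3 has another annotated start, not shown.
Efna3, chr3:89322940-89323189, minus strand: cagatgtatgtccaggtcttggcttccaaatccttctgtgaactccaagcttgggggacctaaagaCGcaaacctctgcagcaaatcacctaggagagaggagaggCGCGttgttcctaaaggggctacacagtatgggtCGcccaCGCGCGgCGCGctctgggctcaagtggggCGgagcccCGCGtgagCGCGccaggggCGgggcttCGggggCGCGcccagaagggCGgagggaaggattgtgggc
Efna5, chr17:62881318-62881567, minus strand: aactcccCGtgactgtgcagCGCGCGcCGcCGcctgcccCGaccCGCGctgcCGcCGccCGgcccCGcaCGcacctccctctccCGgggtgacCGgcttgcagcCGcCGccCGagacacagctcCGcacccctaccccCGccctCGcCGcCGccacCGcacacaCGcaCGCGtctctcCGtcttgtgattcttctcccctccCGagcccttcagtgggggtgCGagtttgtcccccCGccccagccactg
Plxnb1, chr9:109095186-109095435, plus strand: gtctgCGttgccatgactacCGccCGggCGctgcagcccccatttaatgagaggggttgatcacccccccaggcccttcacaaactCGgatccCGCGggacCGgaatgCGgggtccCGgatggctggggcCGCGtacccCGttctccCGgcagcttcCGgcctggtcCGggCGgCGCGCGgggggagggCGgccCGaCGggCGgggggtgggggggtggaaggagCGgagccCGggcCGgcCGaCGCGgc

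These windows held 19, 32 and 30 CG dinucleotides, where the guidance genes' median was 17 and the median over all 32851 windows of the RefSeq table was 6. GC content was 63.6%, 74.8% and 75.2%, with medians of 65.2% for guidance genes and 52.4% for all windows. The letters ACAATG or ACAAAG, cores that Sox proteins are known to bind, were searched on both strands, and share the letters ACAA. Neither was in the windows of Efna3, Efna5 or Plxnb1. At least 1 was in 6 of 42 guidance windows (14.3%), those of Ephb1, Efna2, Efna4, Ntn4, Sema3a and Sema3d, and in 25.2% of all windows. A match is a match of letters and not a binding site.

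Other genes of the same pathways were taken as 2 lists, and no list was tested against another. Of 33 further guidance receptors and ligands, 29 were tested, with a median difference of 0.14 and 19 above 0. An unadjusted p under 0.05 was found for 12 of the 29, beside 3482 of all 18506 genes. Of the 29, 8 were higher in every mutant array and 1 was lower, beside 7.24% and 7.99% of all genes. Plxna4, a plexin that carries class 3 semaphorin signals with neuropilins, rose by 0.78 (SE 0.15, 1.72-fold, adjusted p = 0.0238), from -0.29 ± 0.17 to 0.49 ± 0.23 (SD, n = 4). None of the 29 fell past the threshold. Sema3b, at -0.73 (SE 0.21, adjusted p = 0.0922), and Sema5b, at 0.82 (SE 0.20, adjusted p = 0.0550), did not pass. Of 32 intracellular effectors, such as Nck adaptors, Srgap proteins and collapsin response mediators, all were tested and none passed by limma. Their median was 0.04, 17 were above 0, and 3 had an unadjusted p under 0.05.

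Each list of cell type markers had a median further from 0 than the guidance genes' 0.29. The endothelial markers ran from 0.19 to 0.67 and the guidance genes, some of them dim, from -0.94 to 0.88. The part of these markers in the results was not tested. Of 24 epithelial markers 19 fell and none rose (median -2.13), of 15 progenitor markers 12 fell, among them Nkx6-1, Pdx1, Rbpjl and Nkx2-2, and of 16 endocrine markers 8 fell. Of 22 mesenchymal markers 4 rose (Pdgfra, Postn, Meox1 and Col1a2) with a median of 0.59, of 18 endothelial markers 2 rose (Emcn and Eng) with a median of 0.41, and of 14 macrophage and leukocyte markers 5 rose with a median of 0.63. Of 11 mesothelial markers 2 rose (Bnc1 and Upk1b) with a median of 0.80. Of 19 neural crest, glial and neuronal markers 5 fell, among them Erbb3, Sox10 and Th, with a median of -0.60. The guidance genes' median of 0.29 was above 0, as were those of the mesenchymal, endothelial, macrophage and mesothelial lists. Whether these cell types bear on it was not tested. The endothelial sum was 54.1 to 60.0 in wild-type and 66.4 to 84.9 in mutant arrays, and the macrophage sum was 27.5 to 32.4 against 38.0 to 58.8. Markers that did not pass the filter included Nkx3-2, Foxa1, Spi1, Ret and Tbx18.

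The arrays of a genotype differed among themselves. Mutant replicate 3 held the highest mutant value for 15 of the 38 guidance genes, replicate 2 for 13, replicate 1 for 8 and replicate 4 for 2. In that order of arrays the mesenchymal sums were 566, 528, 478 and 424 and the endothelial sums 84.9, 79.3, 70.7 and 66.4. The sums of the intracellular effectors, which are no cell type markers, were 160, 120, 115 and 117. Mutant replicate 3, highest in each, had the lowest share of spots well above background (59.4%). The mesothelial sums followed another order, with 30.3 in mutant replicate 1, 24.6 in replicate 3 and 22.0 in replicate 4. The medians of the 38 genes, 1.13, 0.74, 0.87 and 0.95, did not follow the counts. Those of the wild-type arrays, 0.74 to 0.99, lay within the range of the mutant ones. Among the wild-type arrays, replicate 1 held the lowest wild-type value for 16 of the 38 genes, replicate 3 for 12, replicate 2 for 6 and replicate 4 for 4, with mesenchymal sums of 366, 283, 340 and 338. Mutant replicate 4 had the highest epithelial sum of the mutant arrays, 62.1, where the others had 39.3 to 44.9. Whether any of these sums bears on the guidance genes was not tested.

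**Figure D4:**
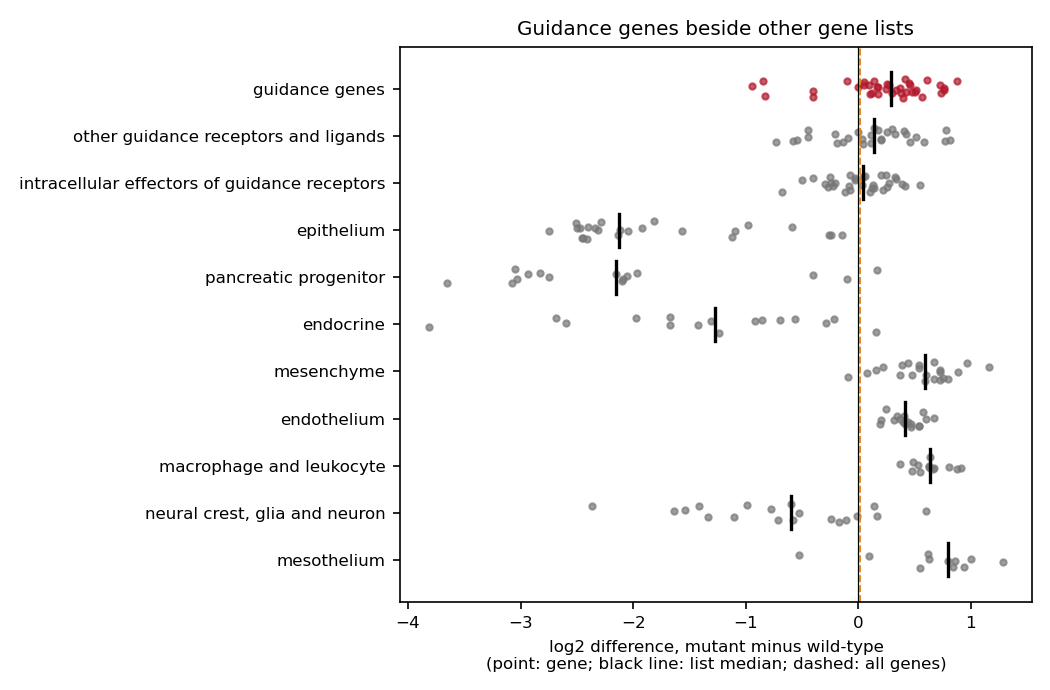
Log2 difference, mutant minus wild-type, of each gene tested, for the guidance genes (red), other pathway lists and lists of cell type markers (grey), with the median of each list as a black line and the median of all genes dashed. The guidance genes' median is 0.29, the other guidance receptors' and ligands' 0.14, the epithelial markers' -2.13 and the mesenchymal markers' 0.59.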

How the data were processed

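RNA was measured in 4 wild-type and 4 mutant pools, 1 array each, grouped by the genotype in the labels. The authors extracted spot values with Agilent Feature Extraction 9.5.3.1, per the file headers. Of the deposited columns, the processed signal is a linear intensity from which the scanner software had removed background and a spatial trend, with no scaling between arrays, while mean signal and local background hold the raw intensity. The deposited spot flags, which are other values than measurements, give control type, outliers and detection. The authors' deposited value table holds intensity values with equal distributions on all arrays. The submitters' processing notes name limma and no steps, and its scale is linear with a median of 227 on each array, uncentred, and holds no ratio that could have a direction.

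From the processed signal, control spots and outlier spots were left out, log2 was taken, and each array's 75th percentile was subtracted. Spots of a probe were averaged. A probe was kept if well above background on at least 4 of 8 arrays, and a gene was represented by its kept probe of highest mean signal. Of the probes, 23374 were named by accession through the RefSeq table, 13300 kept the name in their file and 4500 took that of a probe sharing their name. Genotypes were compared with limma 3.58.1 in R 4.3.3 (lmFit, eBayes; two-sided), adjusted over all genes by Benjamini-Hochberg, and single genes also by a two-sided exact permutation test over 70 assignments. The number of arrays limits the precision. Figures were drawn with matplotlib 3.10.9.

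The guidance genes, lists and alternatives were chosen with earlier results of these data known. Full values are given for each guidance gene past the threshold, the 6 with the largest difference among the others, and the direct partners of those past it. From each other list up to 4 genes per direction past the threshold are named. Some genes of these lists are not reported here by name. Efnb3, Slit3, Nrp2 and Plxnd1 were added for groups that did not overlap, after their values were seen. Sema3b and Sema5b were likewise added, as the largest uncalled difference of their list in each direction. The scripts were tested on simulated data.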

Additional observations from a re-analysis of the deposited data

Results flagged for a closer look

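In 9 of 76 groups of 4 arrays, that is 38 genes in each genotype, 1 array stood far from the other 3, with its gap to the nearest above the critical value of Dixon's test at the 95% level. Chance alone marks about 1 in 20 groups. Values are log2 signals over the array's 75th percentile.

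Wild-type replicate 1 was high for Ephb4 (1.44, the others 1.14 to 1.18), the venous Eph receptor, and for Slit3 (2.63, the others 2.40 to 2.42), and low for Efnb2 (0.58, the others 1.35 to 1.46), the arterial ephrin. Wild-type replicate 3 was high for Ntn4 (-2.92, the others -5.21 to -4.83) and low for Plxnd1 (0.86, the others 1.43 to 1.54).

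Mutant replicate 4 was low for the neighbouring genes Sema3d (-4.70, the others -3.60 to -3.47) and Sema3e (-5.20, the others -4.43 to -4.33). Mutant replicate 3 was low for Epha1 (0.027, the others 0.54 to 0.61), and mutant replicate 2 was high for Efna4 (1.81, the others 1.59 to 1.62).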

How the results depend on the processing

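The guidance genes' median of 0.29 moved by less than the SD of the arrays' own medians within a genotype (0.15) under every alternative run. Counts moved more. Guidance genes past the threshold (2 higher and 1 lower, of 994 genes) numbered 4 higher with quantile normalization (5.12% of all genes passed), 6 higher and 2 lower in the authors' value table (7.07%), 4 higher with probes above background on all 8 arrays (6.67%), and 1 higher and 0 lower with the mean of the probes (4.91%). They numbered 0 lower with slide as a fixed block (1291 genes), 6 higher with slide as a random block (1536 genes), and 6 higher and 2 lower with array weights (1713 genes). With no filter on dim probes (419 genes), with the Y-linked level as covariate (29 genes) and without the 2 arrays of the largest share above background (6 genes, an alternative chosen after seeing the data) they numbered 0 higher and 0 lower. Leaving out 1 array at a time gave 395 to 971 genes, 0 to 3 guidance genes higher and 0 lower. Of called genes, 28.9% were higher in the mutant, beside 42.4% in the authors' value table, 39.6% with probes above background on all 8 arrays and 10.0% with no filter on dim probes. Replicate numbers did not pair the samples: deviations of same-numbered arrays correlated at -0.35, -0.30, -0.0048 and 0.088. A fit with the replicate number as a block gave 340 genes and 0 guidance genes higher and 0 lower. The cause of these moves was not tested.

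Signs turned for genes near 0. Epha5 was 0.10 with quantile normalization, 0.022 with normexp, 0.034 in the authors' value table, 0.11 with the mean of the probes, 0.11 with array weights and 0.25 without the 2 arrays, and ran from -0.82 to 0.32 with 1 array left out. Epha7 was -0.018, -0.012, -0.0076, -0.034 with quantile normalization, normexp, the authors' table and array weights, -0.011 without the 2 arrays, and -0.065 to 0.12 with 1 array left out. Ephb2 was -0.022 with array weights and -0.051 to 0.15 with 1 array left out, and Epha3 was -0.078 with the mean of the probes. With the Y-linked covariate, Epha3 was -0.034, Slit1 -0.087 and Robo2 -0.13. With 1 array left out, Slit1 ran from -0.12 to 0.18, Nrp1 from -0.021 to 0.28 and Efnb1 from -0.010 to 0.19. Dim genes such as Epha5, Ntn4, Sema3d and Sema3e, above background on some arrays of a genotype only, are limited by signal over background.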
